A study of Mus musculus with 17 samples.

Results

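Tumour regions of *Inha* KO mice were compared with WT testis by RNAseq. Of the 17 libraries of the study, 9 enter this comparison, 6 from tumour regions (TM) of 3 *Inha* KO animals and 3 from testes of 3 *Inha* WT animals, chosen by the region and genotype that the labels give. The other 8 libraries, from ‘normal’ tubules (N) and tumour associated tubules (TAT) of the same KO animals, were not used in it. All animals were adult males on a C57/Bl6 background. *Inha* KO animals lack the inhibin alpha subunit and were bred from heterozygous parents. The sample labels give postnatal day 48 to 52 and the protocol P53 to P55, so the age is known only within this range. After the capsule had been taken off, TM was microdissected as the strongly vascularised tissue and snap frozen, whereas WT testis, which the study's methods call testis tubules, was not divided by region, so genotype and dissection cannot be told apart. KO animals 79781 and 79853 gave 1 TM library each, and KO animal 79813 gave 1 from testis 1 and 3 from separate tumours of testis 2. The 4 libraries of animal 79813 were summed, which left 3 animals a side. Reads of a TM library come from all cells of the piece, including vessels and any remnants of tubules.

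Activins are dimers of inhibin beta subunits that signal through type I and type II receptors and SMAD proteins. Inhibin, a dimer of the alpha subunit with a beta subunit, opposes them, and follistatin binds and neutralises them. In the adult testis Sertoli cells nurse the germ cells inside the tubules, where spermatogonia enter meiosis as spermatocytes and mature through round into elongating spermatids, and Leydig cells between the tubules make androgen. Gonadal stromal tumours arise in mice without inhibin alpha and are held to descend from the Sertoli lineage. In the ovary granulosa cells, the counterpart of Sertoli cells, turn androgen into oestrogen with aromatase.

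Values are estimated counts per gene, given here as CPM (counts per gene scaled to the same library total for all samples, with factors from the trimmed mean of M values, TMM), always in the order WT animals 79783, 79811 and 79852 and TM animals 79781, 79813 and 79853. The libraries were primed from poly(A) tails, so CPM compares 1 gene between samples and not different genes. Totals were 6349358 to 35454195 counts in the WT libraries, with WT animal 79783 the shallowest, and 9139835 to 18995984 counts in the TM libraries. The 4 haemoglobin genes took 0.0327% to 0.0496% of the counts in WT and 1.59% to 5.53% in TM, with the highest share in animal 79853. That library stood apart from the other TM libraries. Its squared correlation with them (log2 CPM, across genes, which are not independent replicates) was 0.830 to 0.882, and the other TM libraries gave 0.901 to 0.947 with each other. No library was a copy of another. The labels do not say whether animals shared a litter or a day, so p-values measure the spread between these animals.

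TM differed from WT in 52.3% of the genes tested. Of 23362 genes in the table, 17403 passed the filter on low counts and were tested, and 4633 of these (26.6%) were called higher and 4473 (25.7%) lower with a fold change over 1.5 and an adjusted p below 0.05 in edgeR's quasi-likelihood test with Benjamini-Hochberg adjustment over all genes tested, which is the adjusted p given throughout. The change was at least 4-fold in 2835 of the higher and 3132 of the lower genes, and at least 32-fold in 460 and 116. The median log2 fold change of all genes was 0.05, and in 12320 genes (70.8%) no TM animal overlapped a WT animal. Without TM animal 79781 the lower genes numbered 2425 and the higher 3565, and without animal 79853 they were 4854 and 4117. With total library size in place of TMM the median of all genes moved up by 0.26, and with it 5510 genes were higher and 4112 lower, so changes are to be read relative to that shift. A list of genes below is read against these shares, and its members that failed the filter enter no count. Lists share some genes, such as *Nr5a2* in the steroid synthesis and granulosa lists, so their counts are not independent.

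**Figure D1:**
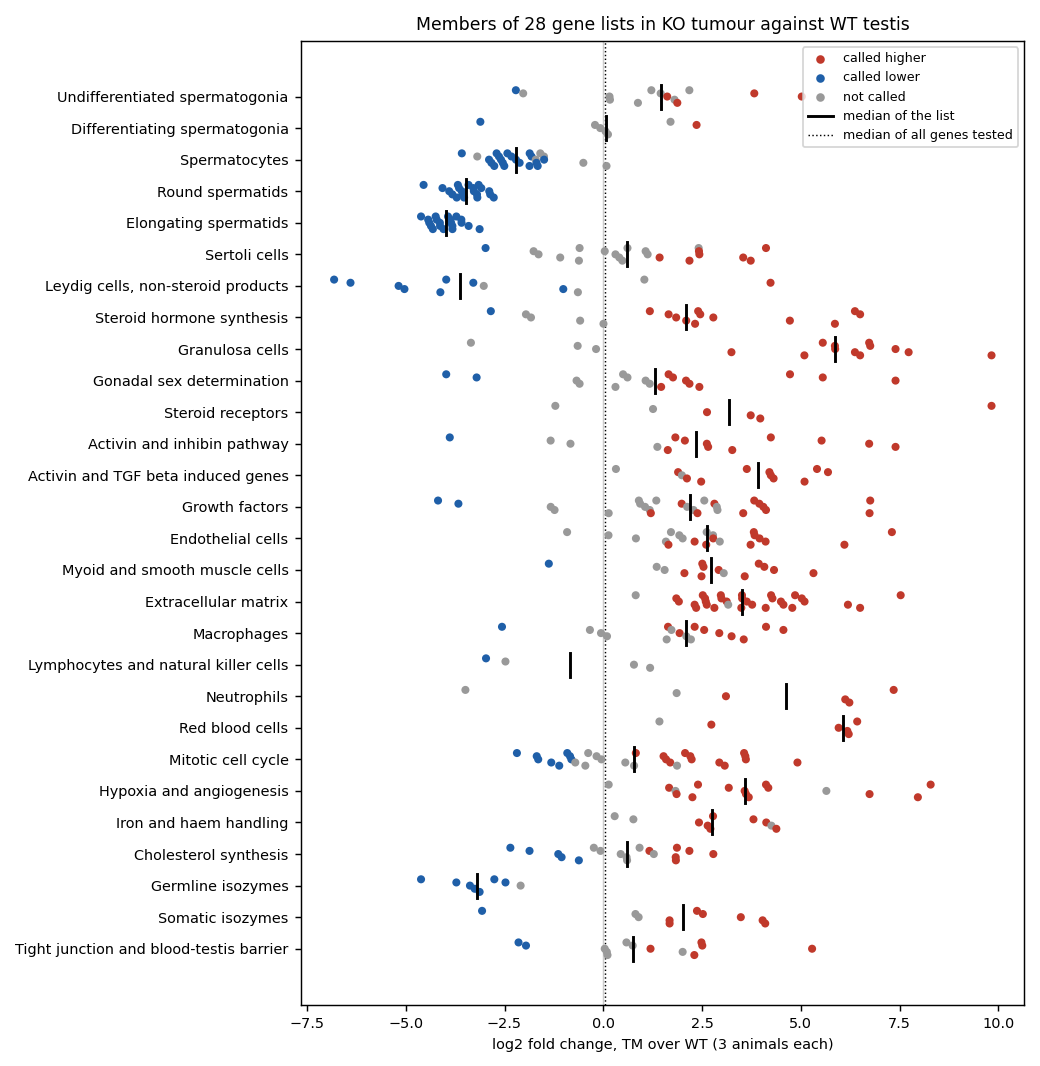
Log2 fold change of TM over WT (x axis, edgeR, 3 animals each) for every tested member of 28 gene lists, 1 row a list, with called genes in red (higher) or blue (lower), other genes in grey, a black bar at the median of the list and a dotted line at the median of all genes tested (0.05). The 2 spermatid rows lie left of 0, the spermatocyte row lies left of it but for values up to 0.08, and the granulosa, extracellular matrix and red blood cell rows lie mostly to the right, with list medians of 5.87, 3.51 and 6.07 in the last 3.

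*Inha* (ENSMUSG00000032968, chromosome 1, 75507077 to 75510366, minus strand, GRCm38), which encodes the subunit removed in these animals, had 61.5, 67.1 and 62.2 CPM in WT animals against 3.24, 4.25 and 5.38 CPM in TM. Every TM animal lay far below every WT animal, and the fall was 14.8-fold (log2 fold change -3.89 ± 0.30, adjusted p = 0.000554). The sources used here do not say which exons the allele has lost, so the remaining reads do not test the genotype.

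The partners of the missing subunit were much higher in the tumours. *Inhba*, which encodes the beta A subunit of activin A, had 18.8, 14 and 13.1 CPM in WT animals against 1357, 1072 and 2427 CPM in TM, a 106-fold rise (log2 fold change 6.73 ± 0.46, adjusted p = 0.000518). *Inhbb*, the beta B subunit, had 9.33, 5.599 and 7.71 CPM in WT animals against 287, 192 and 557 CPM in TM (log2 fold change 5.53 ± 0.51, adjusted p = 0.00076). The groups did not overlap for either subunit, and TM animal 79853 was highest for both. *Fst*, which encodes the activin antagonist follistatin, had 1.901, 0.535 and 1.75 CPM in WT animals against 177, 151 and 342 CPM in TM, a 159.9-fold rise (log2 fold change 7.4 ± 0.67, adjusted p = 0.00071). Of the 14 tested genes of the activin and inhibin pathway, 10 were higher and *Inha* alone was lower, with a median log2 fold change of 2.34.

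Among the receptors, the type II receptor gene *Acvr2b* had 0.691, 2.04 and 1.11 CPM in WT animals against 8.16, 13.96 and 16.3 CPM in TM and rose 9.99-fold (log2 fold change 3.26 ± 0.60, adjusted p = 0.00567). *Acvr2a*, the other type II receptor, had 16.9, 7.96 and 7.38 CPM in WT animals against 2.503, 5.97 and 4.17 CPM in TM and did not pass (log2 fold change -1.33 ± 0.56, adjusted p = 0.081), and neither did the type I receptor gene *Acvr1b* (adjusted p = 0.277). *Tgfbr3* encodes betaglycan, the co-receptor through which inhibin acts, and had 3.63, 3.995 and 5.82 CPM in WT animals against 10.8, 18.8 and 12.2 CPM in TM (log2 fold change 1.63 ± 0.44, adjusted p = 0.0187, or 0.0638 without WT animal 79811). The genes of the signal-carrying SMAD proteins rose together, *Smad2* 3.57-fold (adjusted p = 0.00818), *Smad3* 6.26-fold (0.00383) and the shared partner *Smad4* 6.31-fold (0.00878). The follistatin-like antagonist gene *Fstl3* rose 4.19-fold (0.00138).

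Genes that activin or TGF beta is known to induce in other cells were higher as well, 10 of 12 tested with none lower and a median of 3.92. *Pmepa1*, a feedback inhibitor of TGF beta signalling, had 3.63, 5.001 and 3.46 CPM in WT animals against 79.8, 64.6 and 80.5 CPM in TM, with little spread among the tumours (log2 fold change 4.21 ± 0.29, adjusted p = 0.000518). *Timp1*, an inhibitor of matrix proteases, had 2.77, 2.45 and 1.89 CPM in WT animals against 70.2, 92.4 and 199.9 CPM in TM, highest in animal 79853 (log2 fold change 5.69 ± 0.51, adjusted p = 0.000706). *Tgfbi*, whose name marks it as a TGF beta induced gene but which lies outside the rule for named genes and was chosen after its values were seen, had 12.3, 10.9 and 8.91 CPM in WT animals against 13.4, 17.4 and 9.14 CPM in TM and did not pass (log2 fold change 0.32 ± 0.38, adjusted p = 0.499).

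Most genes of meiotic and later germ cells were lower in the tumours, and the list medians were lower at later stages. The median log2 fold change was -2.21 over 25 spermatocyte genes, -3.47 over 20 round spermatid genes and -3.99 over 20 elongating spermatid genes. Of these, 19, 20 and 20 were called lower, and none was called higher. Without TM animal 79781, 6, 12 and 18 were called lower, with medians of -1.79, -3.19 and -3.73. That animal did not have the largest fall. Its own list medians of log2(CPM + 0.5) relative to the WT mean were -3.04, -3.87 and -4.54. In each list they lay between those of animals 79813 and 79853. In such bulk samples fewer cells of a type and less RNA per cell cannot be told apart.

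*Prm1* encodes protamine 1, which replaces histones in the sperm nucleus (ENSMUSG00000022501, chromosome 16, 10796326 to 10805839). It had 6304, 12680 and 11890 CPM in WT animals against 489, 1443 and 179 CPM in TM. Every tumour lay below every WT testis, animal 79853 lowest and animal 79813 highest, and the fall was 14.6-fold (log2 fold change -3.87 ± 0.79, adjusted p = 0.0079). *Prm2* had 5093, 8386 and 5951 CPM in WT animals against 264, 734 and 107 CPM in TM (log2 fold change -4.14 ± 0.73, adjusted p = 0.00517). *Tnp1*, whose transition protein precedes the protamines, had 1621, 2539 and 2328 CPM in WT animals against 85.3, 327 and 46.9 CPM in TM (log2 fold change -3.82 ± 0.75, adjusted p = 0.00701). The order of the tumours was the same in these 3 genes. *Gapdhs*, the sperm form of a glycolytic enzyme, fell most in the list (24.7-fold, adjusted p = 0.00482), from 446, 518 and 419 CPM in WT to 8.62, 41.6 and 5.92 CPM in TM.

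The 4 promoters below show where transcription starts in 2 genes that fell and 2 that rose. They were chosen after the values were seen, as the called members with a promoter and the smallest p in the elongating spermatid list and in the steroid and granulosa lists. Each runs 5′ to 3′ on the strand of the gene from 250 bases before to 50 bases after the start, from RefSeq (GRCm38.p6), and capitals mark CG, the dinucleotide that DNA methylation acts on. *Fscn3*, an actin-bundling protein of spermatids (chr6:28427651-28427950, plus strand), and *Cabs1*, a calcium-binding protein of spermatids (chr5:87979201-87979500, plus strand), are the genes that fell. *Greb1*, a gene induced by oestrogen in other tissues (chr12:16800837-16801136, minus strand), and *Hsd3b1*, an enzyme of steroid synthesis (chr3:98859745-98860044, minus strand), are those that rose.
Fscn3: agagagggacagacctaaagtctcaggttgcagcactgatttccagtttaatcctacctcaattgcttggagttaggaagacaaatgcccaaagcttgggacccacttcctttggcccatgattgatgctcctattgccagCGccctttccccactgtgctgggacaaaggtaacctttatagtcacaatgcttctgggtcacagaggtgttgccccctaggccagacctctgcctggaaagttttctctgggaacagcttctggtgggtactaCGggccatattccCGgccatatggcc
Cabs1: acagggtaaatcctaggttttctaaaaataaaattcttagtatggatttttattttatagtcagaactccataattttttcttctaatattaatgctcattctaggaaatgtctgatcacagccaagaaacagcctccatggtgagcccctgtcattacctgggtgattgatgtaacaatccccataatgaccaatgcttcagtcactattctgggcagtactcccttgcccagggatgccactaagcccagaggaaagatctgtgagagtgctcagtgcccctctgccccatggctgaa
Greb1: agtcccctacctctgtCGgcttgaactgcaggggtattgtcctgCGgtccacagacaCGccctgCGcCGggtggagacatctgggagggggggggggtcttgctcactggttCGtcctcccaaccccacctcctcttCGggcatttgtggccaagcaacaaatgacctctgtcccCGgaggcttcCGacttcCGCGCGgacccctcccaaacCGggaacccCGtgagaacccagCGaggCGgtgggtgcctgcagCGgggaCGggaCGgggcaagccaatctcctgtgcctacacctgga
Hsd3b1: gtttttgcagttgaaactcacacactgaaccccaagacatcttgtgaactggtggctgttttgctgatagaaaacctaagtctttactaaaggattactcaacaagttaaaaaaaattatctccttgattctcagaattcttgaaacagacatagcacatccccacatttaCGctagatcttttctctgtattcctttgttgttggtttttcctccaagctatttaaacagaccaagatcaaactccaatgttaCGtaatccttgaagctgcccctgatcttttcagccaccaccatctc

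These windows held 3 CG in *Fscn3*, 0 in *Cabs1*, 19 in *Greb1* and 2 in *Hsd3b1*. *Fscn3* had 150.2, 176 and 213 CPM in WT animals against 4.54, 16.99 and 4.37 CPM in TM (log2 fold change -4.36 ± 0.62, adjusted p = 0.00274), and *Cabs1* had 799, 1138 and 1316 CPM in WT animals against 33.8, 104 and 15.9 CPM in TM (log2 fold change -4.40 ± 0.73, adjusted p = 0.00423). *Greb1* had 2.59, 2.58 and 3.46 CPM in WT animals against 158, 154 and 196 CPM in TM (log2 fold change 5.87 ± 0.29, adjusted p = 0.000518). All 3 genes separated the groups with no overlap. Promoters were found for 11860 of 14990 protein-coding genes tested, and a promoter held 20.6 CG on average in genes called higher, 17.7 in genes called lower and 19.9 in genes not called. The 18 elongating spermatid promoters held 4.78 on average, the 17 round spermatid promoters 12.1 and the 21 spermatocyte promoters 20.7. The cAMP response element TGACGTCA (either strand), the site bound by the spermatid factor CREM, stood in 2.5% of the promoters of genes called higher, 3.23% of those called lower, 3.28% of those not called and 1.88% of all 27025 promoters. None of the 18 elongating spermatid promoters held these letters, and 1 of the 17 round spermatid promoters did. The motif AAGGTCA (either strand), the letters that NR5A1 and NR5A2 bind, stood in 3.07%, 4.24%, 3.08% and 4.66%, and in none of the 7 promoters of called steroid synthesis genes or the 7 of called granulosa genes. Of the 9 promoters of tested granulosa genes 1 held it, that of *Amhr2*, which was not called. At such low shares, sets this small would often hold no match, so these absences say little.

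Among the meiotic genes named here, all but *Sycp1* followed the same order of tumours. *Sycp3*, a part of the axis of meiotic chromosomes, had 412, 621 and 532 CPM in WT animals against 78.1, 290.4 and 60.1 CPM in TM (log2 fold change -1.87 ± 0.61, adjusted p = 0.0373), and its call was lost without WT animal 79811 (adjusted p = 0.0509) or without TM animal 79781 (0.126). *Sycp2*, its partner, had 189, 244 and 254 CPM in WT animals against 23.8, 103 and 21.5 CPM in TM (log2 fold change -2.21 ± 0.63, adjusted p = 0.0237, or 0.0804 without animal 79781). *Sycp1*, the central part of the same complex, had 265, 489.8 and 374 CPM in WT animals against 62.3, 266 and 70.6 CPM in TM and did not pass (log2 fold change -1.50 ± 0.60, adjusted p = 0.0694), with TM animal 79813 at the lowest WT level. *Ccna1*, the cyclin of late meiosis, had 140.5, 129.5 and 122 CPM in WT animals against 4.91, 24.9 and 2.42 CPM in TM, far below WT in each tumour (log2 fold change -3.58 ± 0.84, adjusted p = 0.0122). *Ddx4*, an RNA helicase of germ cells of many stages, had 462, 481 and 475 CPM in WT animals against 51.1, 151 and 33.1 CPM in TM (log2 fold change -2.59 ± 0.56, adjusted p = 0.00971).

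Round spermatid genes were all lower. The kinase gene *Tssk6*, needed for shaping the sperm head, had 822, 831 and 743 CPM in WT animals against 28.9, 62.97 and 10.2 CPM in TM, a 23.5-fold fall (log2 fold change -4.55 ± 0.66, adjusted p = 0.00293). *Catsper1*, a subunit of the sperm calcium channel, had 15.7, 16.3 and 15.3 CPM in WT animals against 1.11, 2.06 and 0.403 CPM in TM (log2 fold change -3.68 ± 0.65, adjusted p = 0.00507). *Acr*, which encodes the acrosomal protease acrosin, had 152, 221 and 229.8 CPM in WT animals against 13.4, 43.7 and 4.03 CPM in TM (log2 fold change -3.29 ± 0.80, adjusted p = 0.0139, or 0.0609 without TM animal 79781). *Crem*, the transcription factor named above, fell 6.85-fold (adjusted p = 0.00386).

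Genes of early germ cells did not follow those of later stages. Of 13 tested genes of undifferentiated spermatogonia, 4 were called higher (*Foxo1*, *Uchl1*, *Lin28a* and *Nanos3*) and 1 lower (*Id4*), and the median was 1.45. Without WT animal 79783, WT animal 79852 or TM animal 79853, 2 were called higher in each case, and the median without animal 79853 was 0.54. The defining genes *Zbtb16*, *Gfra1* and *Ret* did not pass. *Gfra1*, the receptor for GDNF on stem cells, had 3.46, 3.15 and 1.25 CPM in WT animals against 1.02, 6.61 and 10.4 CPM in TM (adjusted p = 0.275). *Ret*, its signalling partner, had 2.59, 0.503 and 0 CPM in WT animals against 0, 1.92 and 10.96 CPM in TM (adjusted p = 0.378), with 1 tumour and 1 WT animal at 0. *Zbtb16* had 4.15, 2.33 and 2.45 CPM in WT animals against 4.36, 13.02 and 6.66 CPM in TM (adjusted p = 0.0795).

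*Foxo1*, a transcription factor that ovarian granulosa cells also make, had 9.33, 4.91 and 11.03 CPM in WT animals against 209, 258 and 352 CPM in TM, a 32.4-fold rise (log2 fold change 5.02 ± 0.43, adjusted p = 0.00068). *Uchl1*, a deubiquitinase also abundant in neurons, rose 3.08-fold (adjusted p = 0.00835). *Id4*, an inhibitor of differentiation in the stem cell pool, had 17.8, 9.28 and 13.9 CPM in WT animals against 3.15, 4.37 and 1.21 CPM in TM (log2 fold change -2.21 ± 0.59, adjusted p = 0.019, or 0.0612 without TM animal 79781). *Lin28a* (adjusted p = 0.0457) and *Nanos3* (0.0489) were the least stable calls. *Lin28a* was lost without WT animal 79783 (0.101), WT animal 79852 (0.136), TM animal 79781 (0.138) or TM animal 79853 (0.0821), and also with limma-voom on 17 libraries (0.0543), pieces as replicates (0.081) or no filter (0.0647). *Nanos3* was lost without any 1 of the 6 animals, with an adjusted p of 0.0756 to 0.157, and with RLE scaling (0.0518), no filter (0.0861) or thinned counts (0.0532).

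In the next stage *Stra8*, the gene that retinoic acid switches on before meiosis, had 5.53, 17.9 and 15 CPM in WT animals against 30.6, 83.1 and 85.8 CPM in TM, with every tumour above every WT testis (log2 fold change 2.36 ± 0.56, adjusted p = 0.0127). *Kit*, the receptor of differentiating spermatogonia, had 5.01, 6.67 and 4.94 CPM in WT animals against 5.66, 4.98 and 7.46 CPM in TM and *Sohlh1*, a factor needed for their differentiation, had 1.901, 4.31 and 3.923 CPM in WT animals against 2.503, 11.9 and 19.03 CPM in TM. Neither passed (adjusted p = 0.839 and 0.0973). *Dmrtb1*, a regulator of the switch from mitosis to meiosis, had 350.2, 519 and 440.4 CPM in WT animals against 31.2, 109.7 and 10.2 CPM in TM (log2 fold change -3.11 ± 0.80, adjusted p = 0.0168, or 0.0702 without TM animal 79781). Of 7 genes tested in this list 1 was higher and 1 lower, with a median of 0.06.

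**Figure D2:**
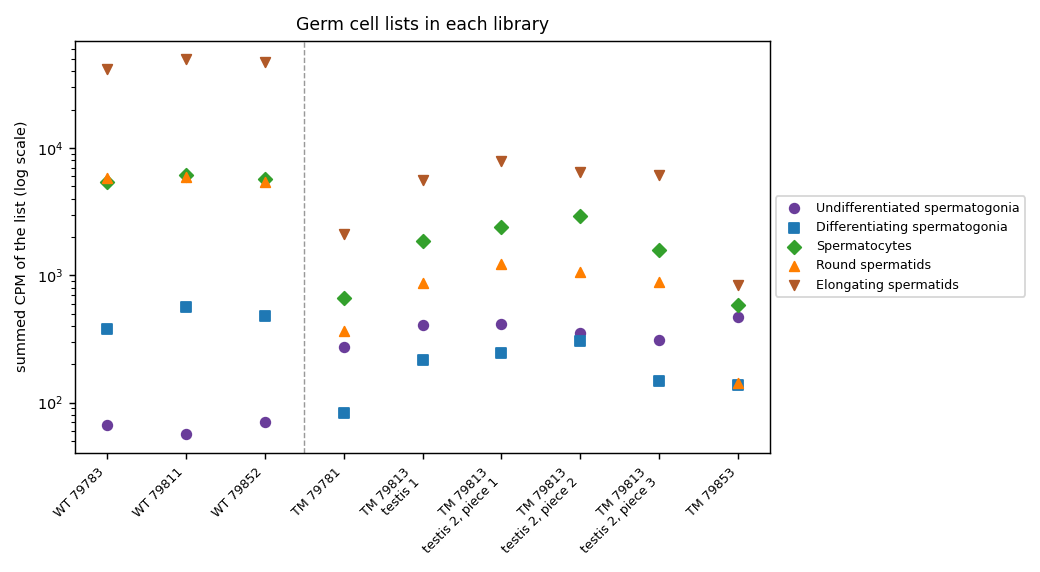
Summed CPM (y axis, log scale) of the germ cell lists in each of the 3 WT and 6 TM libraries, 1 point a library, with the 4 TM libraries of animal 79813 shown separately. The elongating spermatid list sums to 41940 to 49690 CPM in WT and 832.8 to 7876 CPM in TM, and the undifferentiated spermatogonia list to 56.8 to 70.5 CPM in WT and 272.5 to 473 CPM in TM.

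The plot of germ cell sums shows that no tumour library was free of germ cell transcripts. The round spermatid sum was 5383 to 5933 CPM in WT and 143 to 1222 CPM in TM, with animal 79853 lowest and the 4 libraries of animal 79813 at 877 to 1222 CPM. The rise of the summed undifferentiated spermatogonia genes is mostly *Foxo1*.

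Genes of Sertoli cells were divided. Of 21 tested, 7 were higher, *Rhox5* alone was lower and 13 were not called, with a median of 0.61. *Rhox5*, a homeobox gene that androgen switches on in Sertoli cells, had 27.5, 40.01 and 33.6 CPM in WT animals against 2.69, 7.03 and 2.89 CPM in TM, an 8.01-fold fall (log2 fold change -2.98 ± 0.47, adjusted p = 0.00375).

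The defining genes did not pass. *Sox9*, the factor that sets the Sertoli fate, had 25.2, 45.8 and 51.6 CPM in WT animals against 81.4, 96.3 and 10.2 CPM in TM (adjusted p = 0.496). Its level was above WT in animals 79781 and 79813 and below WT in animal 79853. *Wt1*, a factor that keeps that fate, had 36.5, 25.8 and 24.2 CPM in WT animals against 20.3, 35.7 and 0.672 CPM in TM (adjusted p = 0.633). *Cldn11*, the claudin of the blood-testis barrier, had 50.99, 43.5 and 47.4 CPM in WT animals against 60.1, 84.6 and 0.672 CPM in TM (adjusted p = 0.981). In both of these genes animal 79853 was near 0 while the other tumours were near WT. *Sox8* had 1.21, 2.233 and 6 CPM in WT animals against 9.18, 8.298 and 2.69 CPM in TM (adjusted p = 0.273), and *Dmrt1*, a guard of the male fate also made in spermatogonia, had 9.85, 7.96 and 11.9 CPM in WT animals against 8.53, 14.4 and 13.7 CPM in TM (adjusted p = 0.52).

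Several signals that Sertoli cells send to germ cells and their neighbours were higher. *Gdnf*, the growth factor that maintains stem cells, had 3.46, 0.755 and 0.831 CPM in WT animals against 12.4, 12.9 and 54.2 CPM in TM, highest in animal 79853 (log2 fold change 4.12 ± 0.93, adjusted p = 0.0108). *Kitl*, the ligand of KIT, had 1.38, 3.995 and 5.58 CPM in WT animals against 44.03, 61.2 and 26.6 CPM in TM (log2 fold change 3.54 ± 0.57, adjusted p = 0.00386). *Dhh*, the hedgehog ligand that acts on Leydig and myoid cells, had 5.18, 7.99 and 13.99 CPM in WT animals against 56.5, 46.5 and 21.5 CPM in TM (log2 fold change 2.18 ± 0.51, adjusted p = 0.0118). In all 3 genes the groups did not overlap. *Trf*, the iron carrier transferrin, rose 5.36-fold (adjusted p = 0.00136), and *Clu*, the secreted chaperone clusterin, 2.69-fold (0.00886, or 0.0502 without WT animal 79852).

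Of 18 tested genes of gonadal sex determination 9 were higher and 2 lower (median 1.32), and the higher ones included factors of the ovarian, the male and the shared programme. *Wnt4*, a signal of the female pathway, had 0.346, 1.07 and 0.277 CPM in WT animals against 15.5, 15.99 and 55.6 CPM in TM, a 51.5-fold rise (log2 fold change 5.56 ± 0.85, adjusted p = 0.00334). *Runx1*, a factor of fetal granulosa cells, had 0.864, 0.566 and 0.139 CPM in WT animals against 5.01, 10.2 and 23.3 CPM in TM (log2 fold change 4.73 ± 0.93, adjusted p = 0.00692). *Rspo1*, which acts with WNT4, was at or below 0.346 CPM in every animal and was not tested. *Gata4* and *Gata6*, factors of somatic gonadal cells of both sexes, rose 5.36-fold (adjusted p = 0.0227, or 0.0505 without WT animal 79783 and 0.0688 without TM animal 79781) and 4.305-fold (0.006). On the male side the higher members included *Dhh*, given above, and *Cbx2*, a chromatin factor needed for testis formation, which rose 2.73-fold (adjusted p = 0.0258) and was not called without WT animal 79811 (0.0706), WT animal 79852 (0.0633) or TM animal 79781 (0.062). *Ctnnb1*, which encodes beta-catenin, rose 3.39-fold (0.00618). *Ptgds*, the prostaglandin D synthase that acts with SOX9 in the fetal testis, had 151, 204 and 137 CPM in WT animals against 13.2, 15.2 and 2.82 CPM in TM and fell (log2 fold change -3.98 ± 0.63, adjusted p = 0.00367). *Emx2*, a factor of the early genital ridge, was the other lower gene (log2 fold change -3.21 ± 1.13, adjusted p = 0.0468) and was not called when any 1 of the 3 WT animals or TM animal 79781 was left out (adjusted p = 0.0561 to 0.126) or with thinned counts (0.0634). *Fgf9*, a male signal, had 0, 0.723 and 0.185 CPM in WT animals against 0.278, 0.975 and 1.01 CPM in TM (adjusted p = 0.444). *Foxl2*, *Amh* and *Sry* were not analysed here.

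Granulosa cell genes were the list of gonadal cell type genes with the highest median, 5.87 over 15 tested genes, of which 12 were higher and none lower. *Foxl2*, a defining gene of this cell type, was not analysed here and enters no count. *Esr2*, oestrogen receptor beta, had 0, 0.0944 and 0 CPM in WT animals against 40.8, 41.4 and 62.3 CPM in TM. The WT animals together held 3 counts and the TM animals 4088, a ratio of 884 after scaling by library totals and TMM factors (exact 95% interval 302 to 4288, counting error only), with an adjusted p of 0.000554. *Cyp19a1*, which encodes aromatase, had 0.864, 3.24 and 3.923 CPM in WT animals against 137, 81.2 and 273 CPM in TM, a 61.2-fold rise (log2 fold change 5.86 ± 0.71, adjusted p = 0.00164). *Hsd17b1*, which turns oestrone into oestradiol, had 6.05, 3.15 and 4.75 CPM in WT animals against 350.4, 274 and 512 CPM in TM, an 81.5-fold rise (log2 fold change 6.37 ± 0.43, adjusted p = 0.000518). *Nr5a2*, a nuclear receptor of granulosa cells, had 5.01, 0.409 and 0.877 CPM in WT animals against 158, 121 and 208 CPM in TM (log2 fold change 6.50 ± 0.99, adjusted p = 0.00334). In each of these genes every tumour lay above every WT testis. *Nppc*, the natriuretic peptide that holds oocytes in meiotic arrest, had 0, 0.503 and 0.369 CPM in WT animals against 74.5, 51.04 and 109.6 CPM in TM (log2 fold change 7.73 ± 0.67, adjusted p = 0.000682), and *Bmp2* had 0, 0 and 0.369 CPM in WT animals against 16.5, 19.9 and 11.03 CPM in TM (log2 fold change 6.76 ± 1.23, adjusted p = 0.00541). *Slc18a2*, *Irx5* and *Amhr2*, members chosen here after their values were seen because they were not called, had adjusted p-values of 0.932, 0.1 and 0.134. The lowest log2 fold change of the list, -3.35, was among these. With all 12 summed libraries in the fit 2 genes of the list were called lower. Without WT animal 79783 or without TM animal 79813, 1 was called lower in each case.

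Genes of steroid synthesis were mostly higher, but not along the whole path to testosterone. Of 17 tested, 12 were higher and *Cyp17a1* alone was lower, with a median of 2.10. Entry and first steps rose. *Scarb1*, which takes up lipoprotein cholesterol, had 56.3, 54.3 and 64.4 CPM in WT animals against 321, 231 and 198 CPM in TM (log2 fold change 2.10 ± 0.27, adjusted p = 0.00189). *Cyp11a1*, which makes pregnenolone from cholesterol, had 111, 162 and 127 CPM in WT animals against 971, 655 and 486 CPM in TM (log2 fold change 2.40 ± 0.33, adjusted p = 0.00256). *Hsd3b1*, the next enzyme on the way to progesterone (chromosome 3, 98852194 to 98859794, promoter shown above), had 91.1, 73.95 and 67.4 CPM in WT animals against 2229, 1831 and 2074 CPM in TM, a 26.4-fold rise (log2 fold change 4.72 ± 0.28, adjusted p = 0.000518). The 3 tumours differed little for *Hsd3b1*. *Hsd3b6*, the form of adult Leydig cells, had 115, 82.6 and 78.3 CPM in WT animals against 37.7, 35.9 and 3.899 CPM in TM and did not pass (log2 fold change -1.83 ± 0.73, adjusted p = 0.0702).

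The androgen steps differed. *Cyp17a1*, which makes the androgen precursors, had 110.4, 228 and 152 CPM in WT animals against 25.2, 38.3 and 4.64 CPM in TM, with every tumour below every WT testis (log2 fold change -2.85 ± 0.72, adjusted p = 0.0157, or 0.059 without TM animal 79781). *Hsd17b3*, the last step to testosterone, had 7.78, 23.8 and 15.3 CPM in WT animals against 4.82, 6.87 and 0.336 CPM in TM (log2 fold change -1.96 ± 0.95, adjusted p = 0.117). *Star*, which carries cholesterol into mitochondria, had 23.2, 56.2 and 37.4 CPM in WT animals against 25.2, 38.8 and 13.8 CPM in TM (log2 fold change -0.59 ± 0.47, adjusted p = 0.315). Neither *Hsd17b3* nor *Star* passed, and for *Star* the groups overlapped. The electron donors of these enzymes rose, *Fdxr* 5.52-fold (adjusted p = 0.00196), *Por* 3.59-fold (0.00236) and *Fdx1* 2.26-fold (0.00798, or 0.0509 without WT animal 79852). The regulator *Nr5a1* had 17.8, 17.02 and 13.2 CPM in WT animals against 65.7, 57.2 and 27.9 CPM in TM (log2 fold change 1.65 ± 0.37, adjusted p = 0.0106).

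Other products of adult Leydig cells were lower in 8 of 12 tested genes, with a median of -3.63. *Insl3*, the peptide hormone of these cells, had 5039, 2047 and 2149 CPM in WT animals against 103, 158 and 20.8 CPM in TM, a 32.8-fold fall (log2 fold change -5.03 ± 0.83, adjusted p = 0.00427). *Bhmt*, a methyltransferase of the same cells in mice, had 83.5, 84.8 and 86.6 CPM in WT animals against 9.64, 11.5 and 4.84 CPM in TM (log2 fold change -3.29 ± 0.37, adjusted p = 0.00126). *Klk1b27*, a kallikrein, had 15.6, 36.05 and 13.2 CPM in WT animals against 0, 0.502 and 0.0672 CPM in TM (log2 fold change -6.40 ± 1.04, adjusted p = 0.00405), and *Klk1b24* fell 34.01-fold (adjusted p = 0.00536). Kallikrein genes are near-identical copies, so their reads could be split among them. *Klk1b21* was called lower (adjusted p = 0.0267, or 0.0794 without WT animal 79811). *Lhcgr*, the receptor for luteinising hormone on Leydig cells and on granulosa cells of late follicles, was the only member called higher. It had 0.864, 4.97 and 0.969 CPM in WT animals against 56.4, 46.6 and 32.7 CPM in TM, a 19.9-fold rise (log2 fold change 4.23 ± 0.74, adjusted p = 0.005).

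Of 6 steroid receptor genes tested 4 were higher and none lower. Beside *Esr2*, the glucocorticoid receptor gene *Nr3c1* rose 6.29-fold (adjusted p = 0.00859) and *Gper1*, a membrane receptor for oestrogen, 18.6-fold (0.0194). *Gper1* was not called without WT animal 79811 (0.0575), WT animal 79852 (0.0647) or TM animal 79853 (0.0689). *Esr1*, oestrogen receptor alpha, had 11.6, 5.82 and 3.6 CPM in WT animals against 15.3, 19.1 and 15.2 CPM in TM and did not pass (adjusted p = 0.0665).

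**Figure D3:**
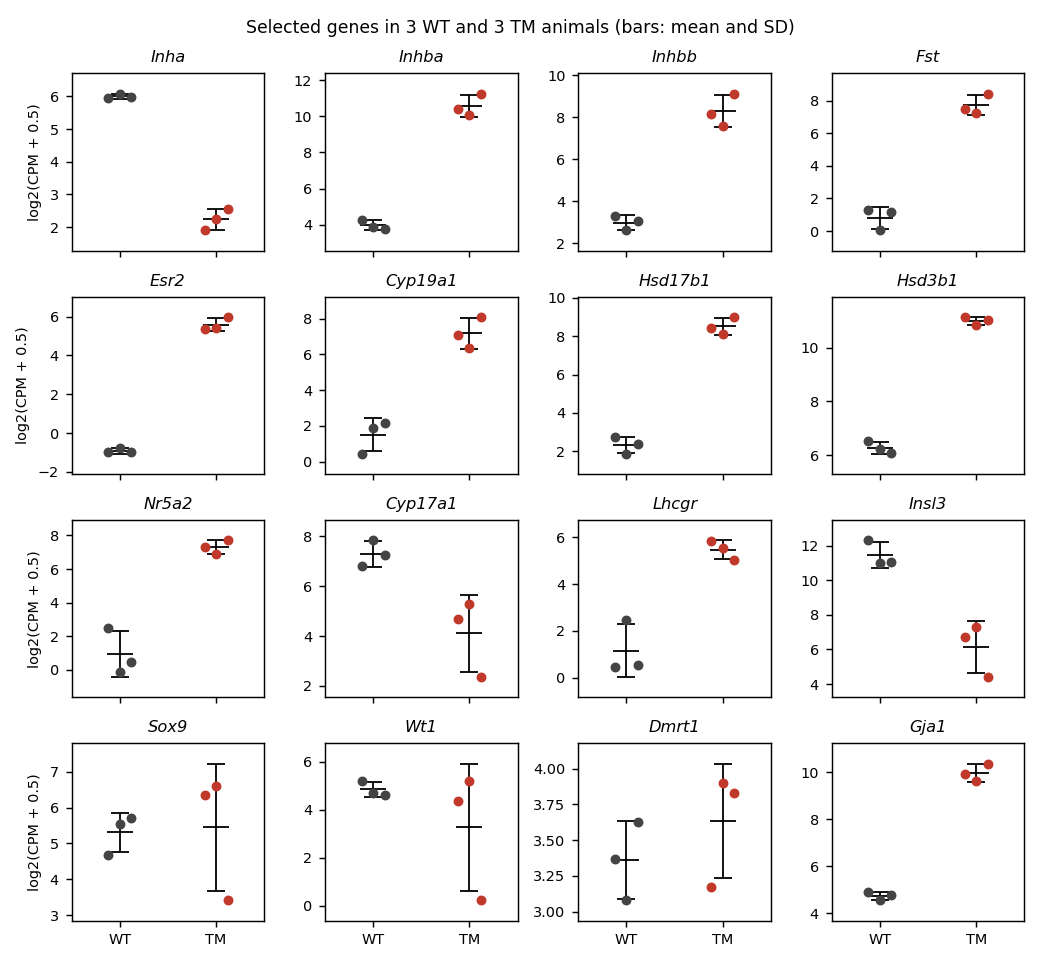
Log2(CPM + 0.5) (y axis, a separate scale in each panel) of 16 genes in 3 WT (dark) and 3 TM (red) animals, 1 point an animal, with bars at the mean and SD. *Inha*, *Cyp17a1* and *Insl3* lie lower in TM with no overlap, *Sox9*, *Wt1* and *Dmrt1* overlap, and the other 10 genes lie higher in TM with no overlap.

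Growth factor genes were higher in 11 of 26 tested and lower in 2, with a median of 2.20. *Igf1*, a growth factor of many somatic cells, had 6.91, 15.9 and 9.05 CPM in WT animals against 158, 132 and 166 CPM in TM, a 14.3-fold rise (log2 fold change 3.82 ± 0.38, adjusted p = 0.000889). *Tgfb2*, a ligand of the TGF beta family, had 0.346, 2.08 and 2.08 CPM in WT animals against 22.5, 29.8 and 21.9 CPM in TM (log2 fold change 3.95 ± 0.62, adjusted p = 0.00358), and *Tgfb3* had 2.77, 3.71 and 2.35 CPM in WT animals against 32.4, 20.9 and 9.21 CPM in TM (log2 fold change 2.81 ± 0.55, adjusted p = 0.00689). *Hbegf*, an EGF receptor ligand, had 2.25, 1.101 and 0.877 CPM in WT animals against 19.8, 30.5 and 16.1 CPM in TM, with no overlap (log2 fold change 4.05 ± 0.54, adjusted p = 0.00223). *Csf1*, which supports macrophages and spermatogonial stem cells, rose 3.98-fold (adjusted p = 0.0123, or 0.0517 without WT animal 79811), and *Pdgfa*, a mitogen of mesenchymal cells, 2.31-fold (0.0152, or 0.0681 without WT animal 79811). None of the fibroblast growth factor genes tested was called higher in the main fit. *Fgf2*, a stem cell factor, had 0, 0.0944 and 0.462 CPM in WT animals against 1.11, 1.31 and 1.28 CPM in TM (adjusted p = 0.104). It was called higher under 3 of 16 other settings, and *Fgf13* under 4 of 17. *Fgf14*, a member that acts inside cells, had 11.1, 17.99 and 16.4 CPM in WT animals against 0.464, 2.15 and 0.807 CPM in TM and fell 13.3-fold (log2 fold change -3.67 ± 0.67, adjusted p = 0.00569). *Fgf10* was called lower (log2 fold change -4.18 ± 1.49, adjusted p = 0.0481) and was lost without WT animal 79811 (0.122), WT animal 79852 (0.0743), TM animal 79781 (0.113) or TM animal 79853 (0.0519), or with no filter (0.0648). *Cxcl12*, a chemokine that guides germ cells, had 1.21, 6.98 and 5.08 CPM in WT animals against 8.99, 12.4 and 4.303 CPM in TM and did not pass (adjusted p = 0.3).

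The extracellular matrix list had the largest share of genes called higher of the 28 lists, 29 of 31, with none lower (median 3.51). *Thbs1*, the matrix protein thrombospondin 1, had 1.21, 1.86 and 3.14 CPM in WT animals against 221, 252 and 713 CPM in TM, a 191-fold rise (log2 fold change 7.53 ± 0.71, adjusted p = 0.00078). *Vcan*, the proteoglycan versican, had 2.77, 2.52 and 2.12 CPM in WT animals against 168, 157 and 213 CPM in TM, with the tumours close together (log2 fold change 6.19 ± 0.30, adjusted p = 0.000518). *Col1a1*, a chain of collagen I, had 11.4, 10.5 and 11.03 CPM in WT animals against 441, 495 and 189.7 CPM in TM (log2 fold change 5.09 ± 0.44, adjusted p = 0.00068). *Col3a1*, collagen III, had 30.6, 17.1 and 12.9 CPM in WT animals against 702, 632 and 86.99 CPM in TM (log2 fold change 4.56 ± 0.83, adjusted p = 0.00548). Animal 79853 was lowest among the tumours for both collagens and highest for *Thbs1*. The basement membrane collagen *Col4a2* rose 17.2-fold (adjusted p = 0.000538) and fibronectin, *Fn1*, 12.6-fold (0.000967).

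Endothelial genes were higher in 11 of 21 tested and none was lower (median 2.62). Their summed level was lowest in animal 79853 among the tumours, and the sum of the list was 33.9 to 60.1 CPM in WT and 104.7 to 244 CPM in TM. Without WT animal 79852 or without TM animal 79781, 6 were called higher in each case. *Plvap*, a protein of fenestrated endothelium, had 0, 0.4404 and 0.0923 CPM in WT animals against 12.7, 10.8 and 23.9 CPM in TM (log2 fold change 6.10 ± 0.93, adjusted p = 0.00333). *Emcn*, an endothelial mucin, had 0.518, 0.472 and 0.277 CPM in WT animals against 6.03, 10.2 and 3.09 CPM in TM (log2 fold change 3.96 ± 0.78, adjusted p = 0.00687). The defining gene *Cdh5*, the cadherin of endothelial junctions, had 0.518, 1.82 and 0.139 CPM in WT animals against 11.3, 17.6 and 5.71 CPM in TM (log2 fold change 3.73 ± 0.98, adjusted p = 0.0179, or 0.056 without WT animal 79783). *Kdr*, the receptor for VEGF, had 0.691, 2.64 and 2.31 CPM in WT animals against 16.4, 13.8 and 5.31 CPM in TM (log2 fold change 2.61 ± 0.69, adjusted p = 0.0185) and was lost without WT animal 79852 (0.0553) or TM animal 79781 (0.0672). *Pecam1* was called higher (log2 fold change 2.78 ± 0.88, adjusted p = 0.0328) but was lost without any animal other than TM animal 79853, with an adjusted p of 0.052 to 0.113.

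Of 14 myoid and smooth muscle genes 10 were higher and *Actg2* was lower (median 2.73), and without TM animal 79781 5 were higher. *Acta2*, smooth muscle actin, had 47.5, 70.96 and 70.8 CPM in WT animals against 1394, 1175 and 331 CPM in TM (log2 fold change 3.94 ± 0.57, adjusted p = 0.00289). *Tagln*, transgelin, had 10.2, 10.2 and 8.63 CPM in WT animals against 218, 234 and 129 CPM in TM (log2 fold change 4.32 ± 0.33, adjusted p = 0.000554). *Myocd*, a coactivator of smooth muscle genes, had 0, 1.101 and 0.831 CPM in WT animals against 26.9, 40.4 and 22.2 CPM in TM (log2 fold change 5.32 ± 0.80, adjusted p = 0.00317). For *Acta2* animal 79853 was lowest of the tumours and still above every WT animal. *Myh11*, smooth muscle myosin, had 9.85, 21.1 and 31.5 CPM in WT animals against 158, 180.3 and 13.6 CPM in TM, where animal 79853 lay within the WT range (log2 fold change 2.49 ± 0.89, adjusted p = 0.0499), and of the animals left out in turn only TM animal 79853 left the call standing, with an adjusted p of 0.058 to 0.142 without any other animal and of 0.0654 with a variance for each group. *Actg2*, enteric smooth muscle actin, had 275, 346 and 353 CPM in WT animals against 132, 172 and 70.4 CPM in TM (log2 fold change -1.38 ± 0.35, adjusted p = 0.0166, or 0.0645 without TM animal 79781).

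The red blood cell list had the highest median of the 28 lists, 6.07, with 5 of 6 tested genes higher. *Hbb-bs*, an adult beta globin, had 217, 177 and 162 CPM in WT animals against 12600, 9319 and 26020 CPM in TM (log2 fold change 6.43 ± 0.53, adjusted p = 0.000651). *Hba-a2*, an alpha globin whose reads could be split with its near copy *Hba-a1*, had 253, 158 and 144 CPM in WT animals against 10200, 7070 and 17170 CPM in TM (log2 fold change 5.96 ± 0.51, adjusted p = 0.00068). *Alas2*, the first enzyme of haem synthesis in red cells, had 13.8, 19.1 and 19.2 CPM in WT animals against 124, 83.3 and 141 CPM in TM, a smaller rise (log2 fold change 2.74 ± 0.30, adjusted p = 0.00124). The part of blood in the other results was not tested, but without the 4 globin genes, an alternative chosen after the data were seen, 4631 genes were higher and 4470 lower and no named call was lost.

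Genes of iron and haem handling were higher in 7 of 10 tested (median 2.74). *Ftl1*, ferritin light chain, had 296, 315 and 283 CPM in WT animals against 4370, 4330 and 3763 CPM in TM (log2 fold change 3.80 ± 0.25, adjusted p = 0.000518). *Hmox1*, which breaks down haem, had 4.84, 2.77 and 2.63 CPM in WT animals against 59.05, 59.3 and 55.8 CPM in TM (log2 fold change 4.13 ± 0.34, adjusted p = 0.000651), and *Slc40a1*, the iron exporter ferroportin, had 5.88, 1.79 and 5.12 CPM in WT animals against 98.6, 79.6 and 82.2 CPM in TM (log2 fold change 4.38 ± 0.49, adjusted p = 0.00127). Each of these was higher in all tumours with little spread, unlike the globins.

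Macrophage genes were higher in 9 of 17 tested (median 2.10). *Lyz2*, lysozyme of myeloid cells, had 43.2, 36.8 and 34.1 CPM in WT animals against 784, 773 and 424 CPM in TM (log2 fold change 4.12 ± 0.34, adjusted p = 0.000651). *Csf1r*, the receptor that macrophages need, had 5.18, 3.995 and 5.08 CPM in WT animals against 19.6, 25.1 and 9.41 CPM in TM (log2 fold change 1.93 ± 0.47, adjusted p = 0.0135), and *Cx3cr1*, a chemokine receptor, had 3.46, 5.57 and 2.72 CPM in WT animals against 23.6, 25.3 and 9.81 CPM in TM (log2 fold change 2.31 ± 0.52, adjusted p = 0.0108). *Ptprc*, the pan-leukocyte gene, had 0.518, 1.73 and 2.35 CPM in WT animals against 3.801, 5.72 and 4.84 CPM in TM and did not pass (adjusted p = 0.0968). *Aif1* was called lower (log2 fold change -2.56 ± 0.59, adjusted p = 0.0114, or 0.0517 without TM animal 79781), with 258, 466 and 392.5 CPM in WT animals against 60.4, 108 and 20.8 CPM in TM. The summed macrophage list was 392.9 to 579 CPM in WT and 623 to 1592 CPM in TM, and its lowest TM value was that of animal 79853. The WT sum is mostly *Aif1* and the TM sum mostly *Lyz2*, so the sums weigh different genes.

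Neutrophil genes were low throughout. Of 6 tested 4 were higher (median 4.61), and the sum of the list was 1.21 to 5.49 CPM in WT and 3.44 to 45.9 CPM in TM. *S100a9* had 0, 0 and 0.0923 CPM in WT animals against 4.36, 2.299 and 13.04 CPM in TM, with 2 counts over the WT animals (ratio 127, exact 95% interval 35 to 1053). *S100a8* had 0, 0.252 and 0 CPM in WT animals against 2.87, 2.68 and 18.9 CPM in TM (log2 fold change 6.12 ± 1.52, adjusted p = 0.0142). Both are genes of granulocytes and monocytes and were highest in animal 79853. Without WT animal 79783, WT animal 79811 or TM animal 79853, 2 neutrophil genes were higher in each case. Lymphocyte genes were near 0, and only 4 of the list could be tested. *Cd3e* and *Cd3g*, which mark T cells, reached at most 0.518 CPM in any animal and *Cd79a* of B cells at most 2.49 CPM. *Cd3d*, whose protein works with those of *Cd3e* and *Cd3g*, had 31.3, 29.1 and 38.9 CPM in WT animals against 1.39, 6.501 and 4.57 CPM in TM and was called lower (log2 fold change -2.97 ± 0.56, adjusted p = 0.0061).

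Genes of the hypoxia and angiogenesis list were higher in 13 of 16 tested with none lower (median 3.59), and their summed level was highest in animal 79853. Without it the median was 2.02 with 11 genes higher, and without WT animal 79783 8 were higher. *Vegfa*, the main growth factor of vessels, had 0, 0.377 and 0.785 CPM in WT animals against 6.12, 6.15 and 137 CPM in TM (log2 fold change 6.74 ± 1.63, adjusted p = 0.0136). *Adm*, the vessel-dilating peptide adrenomedullin, had 0, 0.157 and 0 CPM in WT animals against 8.899, 5.74 and 61.9 CPM in TM (log2 fold change 8.29 ± 1.51, adjusted p = 0.00542). In both genes animal 79853 was several times the other tumours. *Hif1a*, the oxygen-regulated factor itself, had 11.6, 11.98 and 10.9 CPM in WT animals against 146, 134 and 320.1 CPM in TM (log2 fold change 4.12 ± 0.42, adjusted p = 0.000974). *Angpt2*, which loosens vessels, had 2.77, 1.67 and 2.31 CPM in WT animals against 63.5, 46.7 and 9.55 CPM in TM, where animal 79853 was lowest of the tumours (log2 fold change 4.18 ± 0.73, adjusted p = 0.00493). The placental growth factor gene *Pgf* had 8.99, 4.66 and 6.51 CPM in WT animals against 7.88, 6.76 and 7.39 CPM in TM (adjusted p = 0.809).

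Enzymes with a germ cell form and a body form moved apart. The germline isozymes were lower in 7 of 8 tested (median -3.19, 2 without TM animal 79781) and the somatic isozymes higher in 7 of 10 (median 2.03). *Pgk2*, phosphoglycerate kinase of germ cells, had 372, 562 and 467 CPM in WT animals against 24.3, 70.5 and 11.3 CPM in TM (log2 fold change -3.72 ± 0.68, adjusted p = 0.00562). Its somatic partner *Pgk1*, on the X chromosome, had 21.4, 19 and 16.5 CPM in WT animals against 143, 128 and 659.8 CPM in TM (log2 fold change 4.03 ± 0.71, adjusted p = 0.00514). *Gapdh* had 38.7, 44.6 and 40.2 CPM in WT animals against 351, 325 and 1442 CPM in TM (log2 fold change 4.10 ± 0.66, adjusted p = 0.00385), against the fall of *Gapdhs* given above. The tumour of animal 79853 had the highest *Pgk1* and *Gapdh*. The lactate dehydrogenases were less clear, with *Ldhc* of germ cells called lower (log2 fold change -3.13 ± 0.82, adjusted p = 0.0174, or 0.0765 without TM animal 79781) and *Ldha* at 476, 803 and 735 CPM in WT animals against 621, 600.2 and 2524 CPM in TM not called (adjusted p = 0.236). *Hk1*, a hexokinase with its own form in spermatids, had 458, 637 and 641 CPM in WT animals against 52.8, 82.6 and 71.5 CPM in TM and was the only member of its list called lower (log2 fold change -3.07 ± 0.29, adjusted p = 0.000799).

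Cell cycle genes moved both ways. Of 29 tested 13 (44.8%) were higher and 8 (27.6%) lower (median 0.78), against 26.6% and 25.7% over all genes tested. The lower share was thus near that of all genes. *Mcm2*, of the helicase that opens DNA for replication, had 7.26, 7.17 and 8.26 CPM in WT animals against 66.4, 58.8 and 49.01 CPM in TM (log2 fold change 2.94 ± 0.26, adjusted p = 0.000682), and *Mcm4* had 12.6, 9.28 and 10.3 CPM in WT animals against 48.9, 47.9 and 50.96 CPM in TM (log2 fold change 2.20 ± 0.25, adjusted p = 0.00136). *Tyms*, which makes thymidylate, rose 12.2-fold (adjusted p = 0.00056). *Ccnd2*, the D cyclin of granulosa cells, had 37.3, 30.8 and 35.1 CPM in WT animals against 1086, 973 and 1054 CPM in TM, a 30.1-fold rise with the tumours within a narrow range (log2 fold change 4.91 ± 0.25, adjusted p = 0.000518), and *Ccnd3*, another D cyclin, had 210, 131 and 142 CPM in WT animals against 53.5, 60.8 and 39.7 CPM in TM and fell (log2 fold change -1.65 ± 0.29, adjusted p = 0.00531). *Mki67*, the proliferation marker, had 19.5, 7.27 and 17.1 CPM in WT animals against 35.7, 49.8 and 55.6 CPM in TM (log2 fold change 1.69 ± 0.42, adjusted p = 0.0145).

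Several genes of cell division itself were lower. *Aurka*, the spindle pole kinase, had 223.3, 192 and 208 CPM in WT animals against 37.5, 72.05 and 27.03 CPM in TM (log2 fold change -2.19 ± 0.39, adjusted p = 0.0053), and *Plk1*, another mitotic kinase, had 68.6, 88.7 and 83.8 CPM in WT animals against 21.8, 30.4 and 22.7 CPM in TM (log2 fold change -1.68 ± 0.25, adjusted p = 0.0032). *Ccnb1*, *Ccnb2*, *Bub1*, *Foxm1* and *Birc5* were also called lower, and each was lost without TM animal 79781 (adjusted p = 0.0622, 0.08, 0.0945, 0.0534 and 0.0864). All of these but *Foxm1* were also lost without WT animal 79811 or WT animal 79852. Without TM animal 79781, 3 genes of the list were lower, and without WT animal 79811 or WT animal 79852 4 in each case. With total library size *Ccnb1* was still lower below the fold threshold (adjusted p = 0.0453) and *Bub1* and *Birc5* did not pass (0.0663 and 0.0827), nor with no filter (0.055 and 0.0571). *Top2a* (adjusted p = 0.0877) was not called.

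Of 18 cholesterol synthesis genes tested, 6 (33.3%) were higher and 5 (27.8%) lower (median 0.60). Both shares were near those over all genes tested, 26.6% and 25.7%, so the split is not particular to this list. *Fdft1*, which makes squalene, had 476, 249 and 292 CPM in WT animals against 57.9, 79.3 and 61.9 CPM in TM (log2 fold change -2.35 ± 0.32, adjusted p = 0.00248), and *Idi1*, an earlier step, had 85.04, 62.1 and 64.02 CPM in WT animals against 15.02, 27.3 and 15.3 CPM in TM (log2 fold change -1.87 ± 0.33, adjusted p = 0.00502). *Dhcr7*, the last step of the path, had 4.84, 4.66 and 4.94 CPM in WT animals against 12.7, 17.1 and 22.7 CPM in TM (log2 fold change 1.86 ± 0.38, adjusted p = 0.00793), and *Sc5d*, the step before it, rose 4.55-fold (adjusted p = 0.00826). *Mvd*, an early step before *Idi1*, rose as well, 3.62-fold (adjusted p = 0.0251), but was lost without WT animal 79783 (0.0655), WT animal 79852 (0.086) or TM animal 79781 (0.0865). The counts were less stable than these genes, with 3 higher without WT animal 79783, WT animal 79852 or TM animal 79781, and 3 lower without WT animal 79852 or TM animal 79781.

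Junction genes were higher in 5 of 13 tested and lower in 2 (median 0.74). *Gja1*, which encodes the gap junction protein connexin 43, had 29.6, 22.9 and 26.4 CPM in WT animals against 959.5, 795 and 1319 CPM in TM, a 38.95-fold rise (log2 fold change 5.29 ± 0.32, adjusted p = 0.000518). *Cdh2*, N-cadherin, had 28.5, 50.95 and 34.2 CPM in WT animals against 124, 164 and 349 CPM in TM (log2 fold change 2.48 ± 0.46, adjusted p = 0.00583), and *F11r*, a junction adhesion molecule, had 43.7, 22.99 and 34.5 CPM in WT animals against 154, 171 and 249 CPM in TM (log2 fold change 2.51 ± 0.34, adjusted p = 0.00235). The actin-bundling *Espn* of Sertoli cell junctions fell 4.49-fold (adjusted p = 0.0183). *Cldn3* was called lower (log2 fold change -1.96 ± 0.56, adjusted p = 0.0243) and was lost without WT animal 79811 (0.114), WT animal 79852 (0.0803) or TM animal 79813 (0.0814), with all 12 summed libraries (0.0545) and with only testis 1 of animal 79813 (0.0973).

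The largest rises with at least 10 CPM in TM and no overlap held several secreted factors. *Bmp3*, a divergent member of the bone morphogenetic proteins, had 0, 0.189 and 0.0923 CPM in WT animals against 136, 108 and 256 CPM in TM, a 1779-fold rise (log2 fold change 10.30 ± 0.69, adjusted p = 0.000518). *Gm21983* and *Spink13* were at 0 in WT and at least 327-fold and 306-fold higher. The call of *Gm21983* was lost in the study's own method, limma-voom on 17 libraries (adjusted p = 0.0687). *Arg1*, arginase 1, had 1.67, 10.5 and 50.5 CPM in TM and 1 count in WT (ratio 944, exact 95% interval 169 to 37330). *Stc1*, the hormone stanniocalcin 1, had 11.3, 6.09 and 30.2 CPM and 1 count in WT (ratio 630, interval 113 to 24930). *Ccl2* (ratio 499, interval 89.4 to 19750) and *Cxcl5* (ratio 502, interval 89.8 to 19850) are chemokines and were highest in animal 79853. *Gpnmb*, *Thy1* and *Sema3g* each had 1 count in WT, with ratios of 675, 695 and 461.

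The largest falls were mostly unnamed or poorly described transcripts. *Gm21488* on the Y chromosome had 26.96, 11.98 and 12.3 CPM in WT and 0 counts in all TM animals, at least 520-fold lower (adjusted p = 0.00181), though it belongs to a family of like copies among which reads could be split. *Acpt*, a testicular acid phosphatase, had 13.1, 14.2 and 12.8 CPM in WT animals against 0.278, 0.381 and 0.336 CPM in TM, a 40.4-fold fall with a small spread (log2 fold change -5.28 ± 0.50, adjusted p = 0.0008). *Klk1b27*, given above, was the only Leydig cell gene among the 12. *Pcdha2*, *Lrrc75aos2*, *Gm10377*, *4930594C11Rik*, *4930579D09Rik*, *4930538K18Rik*, *Gm13502*, *Gm26812* and *Gm32250* were at 0 in TM animals 79781 and 79853 and at 0.213 to 2.62 CPM in animal 79813.

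The sex chromosomes and mitochondrial genes departed from the autosomes, where 21.6% to 31.3% of the genes tested were higher and 22.2% to 30.6% lower. As background, the X and Y chromosomes are silenced in spermatocytes. On the X chromosome 266 of 722 genes (36.8%) were higher and 137 (19.0%) lower, with a median of 0.91. On the Y chromosome 6 of 88 (6.82%) were higher and 49 (55.7%) lower, with a median of -3.63. The lower Y genes were 47 copies with Gm numbers, *Zfy1* and *Tspy-ps*, and reads could be split among such copies. The 6 higher ones, named here after their values were seen, were *Ddx3y*, *Eif2s3y*, *Erdr1*, *Kdm5d*, *Uba1y* and *Uty*. *Ddx3y*, an RNA helicase, had 5.704, 8.34 and 7.62 CPM in WT animals against 59.3, 58.3 and 58.5 CPM in TM (log2 fold change 3.01 ± 0.26, adjusted p = 0.000682). Higher Y genes numbered 3 without WT animal 79783, WT animal 79811 or TM animal 79853 and 2 without WT animal 79852. Lower Y genes numbered 27 without TM animal 79781 and 32 and 33 without WT animals 79811 and 79852. Of 16 mitochondrial genes 13 were higher and none lower (median 1.21), with 7 higher without TM animal 79781, 8 without WT animal 79811 and 6 without WT animal 79852.

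**Figure D4:**
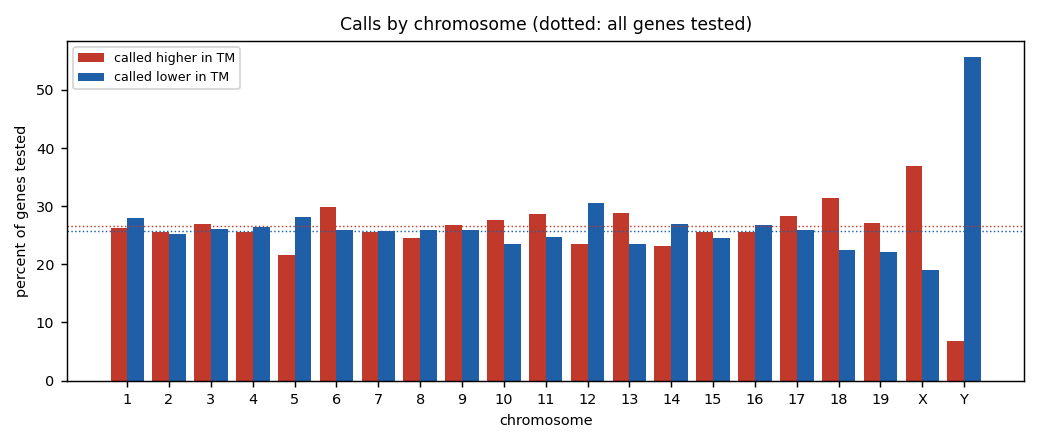
Percent of genes tested on each chromosome (x axis) that were called higher or lower in TM (y axis), with dotted lines at the shares over all genes, 26.6% and 25.7%. The Y chromosome has the largest lower share, 55.7%, and the X chromosome the largest higher share, 36.8%. The mitochondrial genome, with 81.3% higher, is not plotted.

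By class of gene, 29.7% of 14990 protein-coding genes were higher and 23.7% lower, against 5.38% higher and 45.9% lower of 743 lincRNA genes and 4.89% higher and 46.6% lower of 655 antisense genes. The median log2 fold change was 0.29, -2.93 and -2.95 in these classes. The sources used here do not say whether counting used the strand, so reads of an antisense gene and its partner may not be separable.

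The 3 tumours varied more than the 3 WT testes in most genes. The SD of log2(CPM + 0.5) had a median of 0.50 over the TM animals and 0.36 over the WT animals, and 59.4% of genes had the larger SD in TM. The 4 tumour libraries of animal 79813 had a median SD of 0.35 among themselves, and with only 1 of these 4 in place of their sum the median over the TM animals was 0.49 to 0.54. In 3757 genes the SD over the TM animals was at least 1. The animal farthest from the middle was 79853 in 1753 of them, 79813 in 1548 and 79781 in 456.

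**Figure D5:**
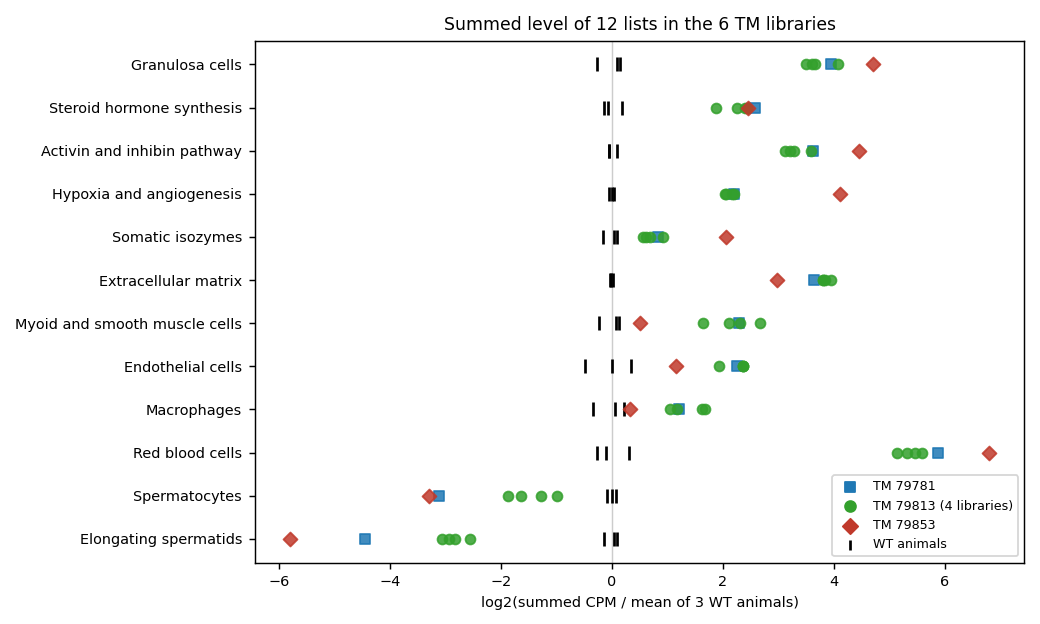
Log2 ratio of the summed CPM of 12 lists (rows) to the mean of 3 WT animals (x axis), for TM animal 79781 (blue squares), the 4 TM libraries of animal 79813 (green circles) and TM animal 79853 (red diamonds), with black ticks for the WT animals. Animal 79853 lies apart in the hypoxia row (2159 CPM against 516 to 575 CPM in the other TM libraries) and in the extracellular matrix row (4229 CPM against 6718 to 8348 CPM), and lowest in the elongating spermatid row.

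Among the called genes with the largest spread over the tumours, chosen after their values were seen, 2 patterns recurred. *Tcf21*, a factor of mesenchymal cells, had 6.22, 3.37 and 5.35 CPM in WT animals against 157, 140.3 and 4.84 CPM in TM, so that animal 79853 was at the WT level (adjusted p = 0.0167). The same held for *Ogn* (92.05, 84.95 and 3.899 CPM in TM, 1.73, 4.53 and 5.26 CPM in WT), *Mfap4* (121, 105 and 4.44 and 0.518, 6.32 and 4.57 CPM) and *Adh1* (430.3, 268 and 13.4 and 14.2, 14.4 and 7.52 CPM). The first 2 encode matrix proteins and *Adh1* an alcohol dehydrogenase. In the other pattern animal 79853 was far above the rest. *Egln3*, an oxygen sensor that is itself induced by low oxygen, had 0, 0.535 and 0 CPM in WT animals against 9.36, 6.41 and 172 CPM in TM (adjusted p = 0.0125), and *Ier3*, an early response gene, had 0.346, 1.54 and 0.323 CPM in WT animals against 14.7, 12.7 and 248 CPM in TM (0.0108). *Dcn*, the proteoglycan decorin, had 31.1, 45.6 and 39.97 CPM in WT animals against 348, 338 and 19.4 CPM in TM, with animal 79853 below every WT animal (adjusted p = 0.0458).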

How the data were processed

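The authors homogenised the tissue, made libraries primed from poly(A) tails with sample indices and molecular identifiers, and sequenced them on an Illumina instrument. The deposited table gives, for each gene, the estimated counts of the authors (expected counts, not normalized). According to the paper, STAR in nf-core/rnaseq aligned the reads to GRCm38 and Salmon quantified them, while the processing notes of the submitters name STAR 2.6.1d and featureCounts of Subread 2.0.1. Neither source says how duplicates were handled or which annotation was used. Of the values deposited, 90.9% were whole. The 4 TM libraries of animal 79813 were added up, and sums were rounded to integers.

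The test of 3 TM against 3 WT animals was the quasi-likelihood F test of edgeR 4.0.16 (R 4.3.3) after filterByExpr and TMM, with Benjamini-Hochberg adjustment. SE is the log2 fold change divided by the square root of the F statistic. A fold quoted in the text is the ratio of mean CPM, and a gene at 0 in a whole group was set to 3 counts over that group. Intervals of ratios are exact for the counts and cover counting error only. Positions come from GENCODE M21 (23213 of 23362 genes) and promoters from RefSeq, matched by symbol. The test was checked on simulated data with 50 changed genes at each fold. It recovered 18% of the 4-fold, 70% of the 8-fold, 96% of the 16-fold and 94% of the 32-fold changes. In the simulated data 9 unchanged genes were called. Many changes of 4-fold were thus missed, so a gene that did not pass is not shown to be unchanged.

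Lists, tests and the choice of named genes were made with earlier results of these data known, so lists are described and not tested. Named were *Inha*, up to 12 called genes each with the largest and smallest fold change (at least 10 CPM in the higher group, no overlap), the up to 5 most significant members of each list in its main direction, called members against that direction, the first 3 markers of each cell type, and members of the activin, sex determination, steroid and growth factor lists by role. Alternatives were RLE and total size scaling, no filter, no fold threshold, DESeq2 1.42.0, all 12 summed libraries, limma-voom (3.58.1) on 17 libraries as in the study, pieces as replicates, limma-voom with a variance for each group, testis 1 of animal 79813 alone, thinned counts, and each animal left out. A few genes are not reported here.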

Additional observations from a re-analysis of the deposited data

Results flagged for a closer look

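Dixon's test was applied to log2 of the 28 list sums over the 6 TM libraries. In 4 of them the gap of 1 library to the nearest other, divided by the range, passed the 95% critical value for 6 samples. In each of these that library was animal 79853. Gap over range is given below for the log2 sums, not for the CPM shown beside it. Chance flags about 1 in 20 groups, and 4 of the 6 libraries are of animal 79813, so the libraries are not independent. The summed CPM of the hypoxia list was 2159 in animal 79853 against 516.2 to 575.4 in the others (gap over range 0.924), and that of the somatic isozymes was 9723 against 3456 to 4432 (0.76). The extracellular matrix sum was 4229 against 6718 to 8348 (0.681), and the endothelial sum was 104.7 against 178.8 to 244.1 (0.632). With 1 library of that animal, what sets it apart was not tested.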

How the results depend on the processing

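The number of genes called moved with the method and with the animals, from 4633 higher and 4473 lower. Leaving out 1 animal gave 2425 (without TM animal 79781) to 5125 (without TM animal 79813) lower genes and 3378 to 4917 higher genes, and with limma-voom on 17 libraries 6723 genes were lower and 6029 higher. The other settings gave 4350 to 5719 higher and 4112 to 6062 lower genes. Genes called higher were 50.9% of those called, but 57.3% with total library size and 59.5% without TM animal 79781. Of 208 named genes called, 164 were called under every setting, 32 were lost only with 1 animal left out, 12 were lost under another setting, and none changed direction. TM animal 79781 was the animal whose absence cost the most, 30 calls, followed by WT animals 79811 (22) and 79852 (21). Of 40 named genes not called, 18 were called under some setting. The median of the lymphocyte list, -0.85 over 4 tested genes, was 2.16 with all 12 summed libraries and -0.81 to 2.6 with 1 animal left out (highest without WT animal 79783). The cause was not tested, and most genes of that list lay near 0. No paired analysis was possible because WT and TM come from different animals that share no number. Precision is limited by 3 animals a side and by the depth of WT animal 79783, where 3 counts correspond to 0.519 CPM.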

Other observations

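Genes of cytosolic ribosomal proteins, a group chosen after its values were seen, were higher in TM in 71 of 79 tested and lower in 2, with a median log2 fold change of 1.48 against 0.05 over all genes tested. The 2 lower members are gene copies used in germ cells, and each has a parent gene on the X chromosome that was higher. *Rpl10l* had 226, 262 and 287 CPM in WT against 31.2, 94.2 and 21.1 CPM in TM (edgeR, log2 fold change -2.40 ± 0.56, adjusted p = 0.0123), while its parent *Rpl10* had 68.4, 58.3 and 55.3 CPM in WT against 959.6, 847.6 and 1083 CPM in TM (log2 fold change 3.99 ± 0.25, adjusted p = 0.000518).

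*Rpl39l* had 542, 577 and 440.4 CPM in WT against 48.4, 149 and 31.5 CPM in TM (edgeR, log2 fold change -2.76 ± 0.59, adjusted p = 0.00907), and its parent *Rpl39* had 21.9, 29 and 26.4 CPM in WT against 506.5, 487 and 578 CPM in TM (log2 fold change 4.34 ± 0.26, adjusted p = 0.000518). In all 4 genes the groups did not overlap. The largest rise in the group was that of *Rps4x*, also on the X chromosome, with 16.1, 26 and 15.7 CPM in WT against 606.5, 557 and 582 CPM in TM (log2 fold change 4.91 ± 0.32, adjusted p = 0.000518). Reads of such genes could be split with near-identical pseudogenes, and how the deposited counts treated them was not tested.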
